A study of Homo sapiens with 29 samples.

Results

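Senescence set off by oncogenic RAS was compared with growing human lung fibroblasts in IMR90 ER:RAS cells, an established fibroblast line infected with the retroviral vector pLNC ER:RAS-neo. The vector encodes RAS fused to the ligand-binding part of the estrogen receptor, and 4-hydroxytamoxifen (4OHT) activates the fusion. The 6 libraries labelled 4OHT_siNT were set against 5 libraries labelled DMSO_siNT, which makes 11 of the 18 libraries in the count table. Both groups carried the vector and had received a non-targeting siRNA, numbered 2 or 4, by reverse transfection, and the groups differ by label in 4OHT (100 nM) or DMSO, its solvent. No library came from 4OHT-treated cells without the vector. Effects of 4OHT itself, of RAS signalling and of the arrest therefore cannot be told apart. Cells were labelled as day 7. Nothing in the sources used here says that libraries of a group came from separate cultures, so p-values measure the spread between these libraries, which may be technical. What the set letters V and VM mean is not given in the sources used here: all 6 4OHT_siNT libraries were VM, while 3 DMSO_siNT libraries were VM and 2 were V.

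Oncogene-induced senescence is a lasting arrest of division that follows a strong growth signal. Senescent cells stay metabolically active, enlarge, build up lysosomes and release the senescence-associated secretory phenotype (SASP), a mixture of cytokines, chemokines and proteases. Fibroblasts make and remodel the collagen and elastic matrix of the lung, and can take on a contractile state in which actin, myosin and their partners are made in quantity. SASP and proliferation genes are the usual readouts of this model, so 2 lists of them were set aside and the description below concerns metabolism, protein production, matrix, cell identity and transcription factors.

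Each DMSO_siNT library held 11534913 to 13448183 counts and each 4OHT_siNT library 13237672 to 15407710, with 16380 to 16726 genes detected. One further DMSO_siNT library, siNT 4 of set 2V, held 247 counts of ESR1 and 3652 of HRAS, against at least 14185 and 27421 in the 5 others, and was left out. ESR1, read from the vector as well as from the gene, was present in all 11 libraries used, at 1179.6 ± 127 CPM (depth-scaled counts; SD, n = 5) in DMSO_siNT and 2566 ± 528 CPM (SD, n = 6) in 4OHT_siNT. ESR1 RNA was itself higher with 4OHT (log2 fold change 1.12 ± 0.14, SE), as was HRAS (0.98 ± 0.12). Among fibroblast markers, VIM, COL1A1 and THY1 were high in every library. PTPRC and PECAM1 did not pass the filter on low counts, and CDH1, ESRP1, CD3E, TYROBP, RBFOX3 and STMN2 had at most 3 counts in every library. The arrest was visible in the set-aside proliferation list, where 183 of 187 genes tested fell, and 45 of 62 SASP genes tested rose.

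Of 13057 genes tested, 7722 were called at an adjusted p under 0.05 by edgeR's quasi-likelihood test, which is 59.1% of all genes. The calls split into 3677 higher genes (28.2%) and 4045 lower genes (31.0%), and 994 higher and 1559 lower genes changed over 2-fold. Among protein-coding genes, 3457 of 12011 tested rose and 3801 fell, and among long non-coding RNA genes 97 of 459 tested rose and 105 fell. So large a share of calls means that a gene list with some called members is no finding by itself. For each list below, the calls and the median log2 fold change are to be read against these shares and against the median of all genes tested, -0.03. No main call was called in the other direction under another choice of libraries. With the VM sets alone, 6576 of the 7722 genes were called the same way and 0 the other way. With the left-out library added back, 6130 were called the same way and 0 the other way, of 6193 calls in all. The first principal component, with 79.8% of the variance, separated the groups. DMSO_siNT siNT 4 of set 3VM lay lowest on the second, which held 7.0%. CPM are counts as a share of the library, scaled by TMM (a trimmed mean that aligns library compositions), and ± after a log2 fold change is its standard error. The verbs rose and fell are used only of genes that passed the test. For a gene with at most 3 counts in each library of a group, the least fold that 3 counts per library allow is printed in place of a fitted value. Such a gene passed the filter on low counts through the other group alone, so it had to differ.

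**Figure D1:**
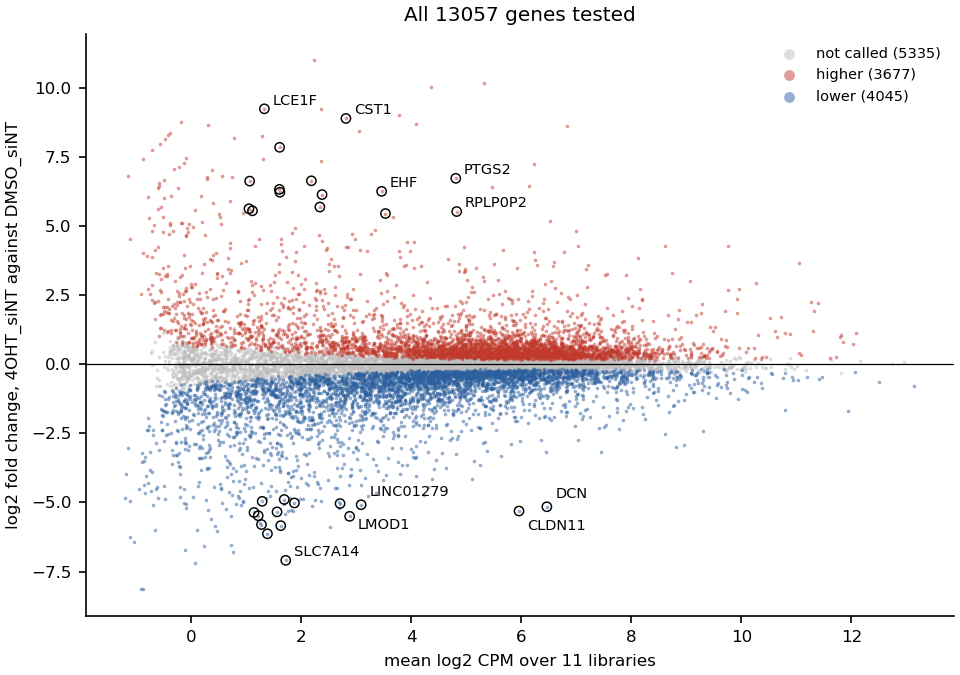
Each point is 1 of 13057 genes tested, with mean log2 CPM over 11 libraries on the x axis and log2 fold change of 4OHT_siNT against DMSO_siNT on the y axis. Red points are the 3677 genes called higher, blue points the 4045 called lower and grey points those not called. The 15 largest rises and 15 largest falls outside the SASP and proliferation lists are ringed and 5 of each are named. Fitted values of genes with at most 3 counts in every library of a group (such as LCE1F) depend on a prior count and are drawn only to place them.

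The largest rises outside the set-aside lists, among genes with a mean log2 CPM over 1, were of genes hardly read in growing cells. LCE1F, a component of the cornified envelope of skin, had CPM of 0, 0, 0, 0 and 0.151 in the DMSO_siNT libraries (in the order siNT 2 of sets 1V, 2VM and 2V, then siNT 4 of sets 2VM and 3VM). Its lowest, median and highest values in 4OHT_siNT were 20.8, 23.4 and 27.2 CPM, so that it was at least 105-fold higher. The secreted cysteine protease inhibitors CST1 (log2 fold change 8.89 ± 0.31) and CST4 (at least 117-fold higher) rose with it. CST1 and CST4 are near-copies of each other, and reads may have been split between them. The others of the 15 largest rises were PTGS2 (6.73 ± 0.21), LINC02154 (6.64 ± 0.19), FER1L6 (6.63 ± 0.66), BCL2A1 (6.33 ± 0.26), EHF (6.26 ± 0.17), COL10A1 (6.23 ± 0.29), C3 (6.14 ± 0.25), WNT7B (5.69 ± 0.21), DCSTAMP (5.63 ± 0.30), AFAP1L2 (5.55 ± 0.32), RPLP0P2 (5.53 ± 0.18) and TMEM156 (5.45 ± 0.27). PTGS2 is the inducible cyclooxygenase, BCL2A1 an anti-apoptotic BCL2 relative, C3 the central complement protein, WNT7B a secreted ligand and DCSTAMP a membrane protein needed for osteoclast fusion. RPLP0P2 is a pseudogene of a ribosomal protein gene, and its value is uncertain because reads of the parent gene could be assigned to it. Under 4OHT, FER1L6 was at 4.64 to 9.17 CPM in the 3 libraries with siNT 2 and 18.8 to 25.3 CPM in the 3 with siNT 4, and the difference of its 4OHT effect between the siRNAs did not pass the test (edgeR interaction, adjusted p = 0.72).

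The largest falls left only a small part of the expression read in growing cells. DCN encodes decorin, a small proteoglycan that binds collagen fibrils. It stood at 893, 509, 679.5, 545 and 508 CPM in DMSO_siNT and at a lowest, median and highest of 15, 18.3 and 18.9 CPM in 4OHT_siNT, a log2 fold change of -5.15 ± 0.16 (adjusted p = 1.7e-12). CLDN11, a tight junction claudin, had CPM of 682, 410.3, 629, 371 and 329 against 7.10, 12.3 and 16.8 (-5.31 ± 0.26). The groups were thus apart by more than an order of magnitude for both genes. The remaining falls were SLC7A14 (-7.09 ± 0.41), KCNK2 (-6.13 ± 0.26), GALNT15 (-5.84 ± 0.34), CORIN (-5.80 ± 0.32), LMOD1 (-5.50 ± 0.26), SSTR1 (-5.48 ± 0.22), KIT (-5.36 ± 0.25), MGARP (-5.34 ± 0.19), LINC01279 (-5.08 ± 0.22), KRT19 (-5.04 ± 0.18), OXTR (-5.02 ± 0.24), TMEM130 (-4.96 ± 0.34) and PCLAF (-4.89 ± 0.24). They include a potassium channel (KCNK2), receptors for somatostatin, stem cell factor and oxytocin (SSTR1, KIT, OXTR), the smooth muscle actin nucleator LMOD1, the simple-epithelium keratin KRT19 and the replication factor PCLAF, which the proliferation list did not hold. In all 30 genes of both rules the groups did not overlap, which the rule required. Over all genes tested, 41.6% did not overlap.

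A stricter reading asked which genes were silent in 1 group. At most 3 counts in every DMSO_siNT library, with at least 1 CPM in every 4OHT_siNT library, were found for 51 genes, 4 of them in the set-aside lists. Receptors known from leukocytes were among these: ADGRE2 (at least 50.6-fold higher, at 9.94 to 14.4 CPM in 4OHT_siNT), TREM1 (at least 25.2-fold higher), CXCR4 (at least 11.8-fold higher), ITGAX (at least 10.4-fold higher), GPR183 (at least 10.5-fold higher) and CCR1 (at least 8.41-fold higher). In 4OHT_siNT, CXCR4, GPR183, ITGAX and CCR1 were read weakly, at mean CPM of 2.66, 2.36, 2.35 and 1.90, and TREM1 at 5.68. These receptors, and the genes named next for the other direction, were picked after their values were seen. They passed the filter on low counts through 1 group alone, so they had to differ and their calls are no finding. Of 23 markers of blood and immune cells, 15 had at most 3 counts in every library, SPI1, TYROBP, AIF1 and ITGB2 among them, and of the 2 that were tested CD68 was not called and CORO1A fell. The same rule in the other direction found 16 genes, 3 of them proliferation genes. Those outside the lists included TOX (at least 38.9-fold lower), the cartilage proteoglycan ACAN (at least 11.9-fold lower), the matrix protein ABI3BP (at least 10.6-fold lower), the serotonin receptor HTR2B (at least 11.6-fold lower) and the dopamine receptor DRD1 (at least 9.02-fold lower).

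Changes of over 4-fold also fell on neighbouring genes. Along the chromosomes (GRCh38 with GENCODE positions, 12598 genes placed), 3 runs of at least 4 neighbouring tested genes were all called in the same direction with such a change, and all 3 ran upward. The longest, chr11:102520508-102874982, held the 7 matrix metalloproteinase cluster genes MMP7, MMP8, WTAPP1, MMP10, MMP1, MMP3 and MMP12. The second, chr4:73740519-74099196, held the 6 chemokine genes CXCL8, CXCL6, CXCL1, CXCL5, CXCL3 and CXCL2. These runs hold known SASP proteases and chemokines. The third, chr1:152675279-152911886, lay in the epidermal differentiation complex and held LCE2C (at least 16.9-fold higher), LCE2A (4.69 ± 0.21), LCE1F and IVL. LCE2C, LCE1F, IVL, MMP7 and CXCL6 had at most 3 counts in every DMSO_siNT library. They passed the filter through 4OHT_siNT alone, so they had to differ and the runs are set in part by the filter. Runs were built over tested genes only, and neighbours that did not pass the filter were skipped.

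Glycolysis genes mostly rose. Of 27 genes of glucose uptake and glycolysis tested, 17 rose and 2 fell, or 63% and 7.41% against 28.2% and 31.0% of all genes, with a median log2 fold change of 0.46. The summed CPM of the list overlapped between groups, at 11953.5 to 13962.9 in DMSO_siNT and 13135.8 to 17006.8 in 4OHT_siNT. Hexokinase 2 (HK2), which traps glucose in the cell as its phosphate, rose most: DMSO_siNT libraries had 25.6, 37.6, 29.1, 31.7 and 25.3 CPM and 4OHT_siNT libraries a lowest, median and highest of 215, 241 and 259 CPM. This was a log2 fold change of 3.01 ± 0.11 (adjusted p = 6.8e-12), and the groups were far apart. The transporter SLC2A6 (1.65 ± 0.12), the regulators of glycolytic flux PFKFB4 (1.53 ± 0.17) and PFKFB3 (1.05 ± 0.10), the neuronal-type enolase ENO2 (1.47 ± 0.20) and PGK1 (0.38 ± 0.09) also rose. Not every step did: the main glucose transporter SLC2A1 fell (-0.64 ± 0.13; with siNT 4 alone -0.13, adjusted p = 0.36), as did SLC2A12 (-1.91 ± 0.17), and GAPDH (0.12 ± 0.10, adjusted p = 0.34), PKM (0.14 ± 0.11, 0.29) and LDHA (0.10 ± 0.09, 0.31) did not pass the test.

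Beyond pyruvate, changes went both ways. In pyruvate entry and the citric acid cycle, 12 rose and 11 fell of 31 tested (median 0.07). PDK1 (-1.04 ± 0.15) and PDK2 (-0.81 ± 0.11), kinases that switch pyruvate dehydrogenase off, fell, while PDK3 (0.89 ± 0.24) rose, not with siNT 2 alone (0.73, adjusted p = 0.066). Pyruvate carboxylase PC (-1.05 ± 0.21) and mitochondrial IDH2 (-0.73 ± 0.08) fell. Of 72 nuclear-encoded respiratory chain subunits, 12 rose and 6 fell (median 0.04), so that 54 were not called, and the called changes were small, from NDUFB9 (0.59 ± 0.12) to COX7A2 (-0.53 ± 0.13). Of 8 pentose phosphate genes, 1 rose and 2 fell.

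Cholesterol genes separated by step. Among 26 genes of synthesis and uptake, 5 rose and 9 fell (median -0.02). ACAT2 (-1.34 ± 0.10), LSS (-0.81 ± 0.09) and EBP (-0.79 ± 0.11), enzymes of the pathway, fell. Among genes that move cholesterol out, the exporters rose. ABCG1 was close to absent in DMSO_siNT, at 0.428, 0, 0.165, 0.224 and 0 CPM, and stood at a lowest, median and highest of 4.38, 6.0 and 7.70 CPM in 4OHT_siNT (5.08 ± 0.42). ABCA1, which loads cholesterol onto apolipoprotein A-I, went from 37.3 ± 11.9 CPM (SD, n = 5) to 175 ± 20.2 CPM (SD, n = 6; 2.23 ± 0.18), and NPC1, which releases cholesterol from lysosomes, also rose (2.41 ± 0.21). NR1H3, the oxysterol receptor LXR-alpha, fell (-1.21 ± 0.19), as did SOAT1 (-0.86 ± 0.10), which esterifies cholesterol for storage. In all, 6 of 13 efflux and oxysterol genes rose and 3 fell.

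Fatty acid synthesis, oxidation and storage lists each held calls in both directions. For synthesis and desaturation, 7 rose and 6 fell of 20 (median 0.03). The mitochondrial carboxylase ACACB (2.34 ± 0.21) and fatty acid synthase FASN (0.66 ± 0.12) rose, while the elongase ELOVL2 (-4.46 ± 0.42) and the desaturase SCD5 (-1.32 ± 0.11) fell. In fatty acid oxidation, 6 rose and 11 fell of 27 (median -0.12), led by a rise of the coactivator PPARGC1B (1.97 ± 0.23) and falls of ACOX2 (-2.63 ± 0.23) and HADH (-1.35 ± 0.13). Among lipid droplet genes, 8 rose and 5 fell of 23 (median 0.15). G0S2, an inhibitor of lipolysis (4.12 ± 0.36), and the triglyceride synthase DGAT2 (2.89 ± 0.26) rose, and the fatty acid carriers FABP3 (-1.74 ± 0.27) and FABP4 (-1.48 ± 0.22) and the hormone-sensitive lipase LIPE (-1.17 ± 0.28) fell.

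Several biosynthetic enzymes fell. In serine and one-carbon metabolism, 5 rose and 9 fell of 19 (median -0.20), with falls of SHMT1 (-1.96 ± 0.20) and of PHGDH, which opens serine synthesis (53.6 ± 5.25 CPM, SD, n = 5, to 17.3 ± 2.56 CPM, SD, n = 6; -1.63 ± 0.11), and a rise of the glycine-cleaving GLDC (2.84 ± 0.33). For purine and pyrimidine synthesis, 5 rose and 9 fell of 22 (median -0.04), with PRPS1 (-1.66 ± 0.10) and PAICS (-0.99 ± 0.07) lowest among well-read members. Of 26 enzymes of glutamine, proline, arginine and polyamine metabolism, 2 rose and 10 fell (median -0.20). Glutamine synthetase GLUL (-1.60 ± 0.13), PYCR1 of proline synthesis (-1.31 ± 0.08), BCAT1 (-1.27 ± 0.09) and ASS1 (-1.24 ± 0.22) fell. Both that rose break polyamines down: SMOX, spermine oxidase (2.32 ± 0.11), and SAT1, spermidine and spermine acetyltransferase (1.91 ± 0.19). Of 27 amino acid transporters, 7 rose and 9 fell (median -0.06). SLC6A15 (3.61 ± 0.17) rose most, and SLC38A4 (-3.69 ± 0.24), SLC38A2 (-0.99 ± 0.08) and the cystine importer SLC7A11 (-0.89 ± 0.12) fell.

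In NAD and tryptophan metabolism 2 enzymes rose most. Kynureninase KYNU had 6.48, 6.45, 8.60, 10.9 and 11.7 CPM in DMSO_siNT and a lowest, median and highest of 86.2, 89.8 and 94.5 CPM in 4OHT_siNT (3.35 ± 0.14, adjusted p = 3.6e-11). NAMPT, the rate-limiting enzyme of NAD salvage, rose as well (2.37 ± 0.13). Both sets of values were apart by several times the spread. In the list as a whole 3 rose and 9 fell of 15 (median -0.29), including BST1 (-2.98 ± 0.22) and the methyltransferase NNMT (-1.11 ± 0.15), although the summed CPM of the list, dominated by NAMPT in 4OHT_siNT, went up from 443 ± 14.8 (SD, n = 5) to 582 ± 52.7 (SD, n = 6). In prostaglandin metabolism, 7 rose and 5 fell of 18 (median 0.12). PTGS2 went from 2.71, 2.15, 1.74, 2.54 and 1.73 CPM to a lowest, median and highest of 191, 209 and 346 CPM. The phospholipase PLA2G4A (2.11 ± 0.19), which frees its substrate, and the synthase PTGES (1.40 ± 0.33), which acts on its product, rose too, PTGES not with siNT 2 alone (0.51, adjusted p = 0.21). Receptors for the products fell: PTGER2 (-3.37 ± 0.14), PTGFR (-1.55 ± 0.20) and PTGER4 (-1.10 ± 0.13).

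Antioxidant genes of the NRF2 pathway mostly fell: 5 rose and 20 fell of 35 tested, with a median of -0.41. NQO1, a textbook NRF2 target, went from 345 ± 30.4 CPM (SD, n = 5) to 177 ± 22 CPM (SD, n = 6; -0.96 ± 0.10). Falls were largest for AKR1C3 (-3.68 ± 0.34), GPX3 (-2.62 ± 0.22), AKR1C2 (-2.41 ± 0.31) and ABCC3 (-2.25 ± 0.27). AKR1C2 and AKR1C3 are close paralogs, and their values are uncertain where reads were split. The mitochondrial superoxide dismutase SOD2 (1.58 ± 0.17), AKR1B1 (1.97 ± 0.11) and GCLC (0.49 ± 0.08) rose. NFE2L2, which encodes NRF2, was not called (0.05 ± 0.10, adjusted p = 0.66), nor was HMOX1 (-0.17 ± 0.21, 0.51), which stood at 27.2 to 28.9 CPM with siNT 2 and 52.8 to 57.3 CPM with siNT 4 under 4OHT (difference of effect between siRNAs, adjusted p = 0.077). With siRNA number as a covariate HMOX1 was called lower (-0.30, adjusted p = 0.029), as with siNT 2 alone (-0.53, adjusted p = 0.0049). Among iron genes, 10 rose and 6 fell of 22 (median -0.03). Importers of iron or other metals rose in TFRC, the transferrin receptor (0.76 ± 0.11), SLC39A14 (1.32 ± 0.10) and SLC39A8 (1.97 ± 0.27), while SLC40A1, the iron exporter ferroportin (-1.50 ± 0.25), and HEPH (-1.49 ± 0.18) fell.

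Lysosome genes mostly rose. Of 63 tested, 38 rose and 10 fell, with a median of 0.39, and their summed CPM was 9249.7 to 10927 in DMSO_siNT and 13349 to 13775 in 4OHT_siNT, with no overlap. Of the 16 subunits of the proton pump that acidifies lysosomes, 14 rose and none fell. ATP6V0D2 was at most 3 counts in each DMSO_siNT library and 4.74 to 6.90 CPM in 4OHT_siNT (at least 25.4-fold higher), and ATP6V1C1 rose too (1.01 ± 0.08). Cathepsin S (CTSS) had 3.63, 0.645, 1.41, 1.27 and 1.28 CPM in DMSO_siNT and a lowest, median and highest of 38.6, 44.5 and 48.2 CPM in 4OHT_siNT (4.72 ± 0.26). The acid phosphatase ACP5 (4.07 ± 0.24), cathepsin K (CTSK, 1.56 ± 0.14) and prosaposin (PSAP, 1.08 ± 0.08) rose, and FUCA1 (-1.06 ± 0.16), CTSF (-0.87 ± 0.11) and LIPA (-0.79 ± 0.12) fell. ACP5, CTSK, ATP6V0D2 and DCSTAMP are known together from osteoclasts, but were noted as a group only after their values were seen. Of the factors that control lysosome genes, TFE3 rose (0.35 ± 0.07), MITF fell (-0.43 ± 0.13) and TFEB was not called (-0.14 ± 0.17, adjusted p = 0.47). The fall of MITF was not called with siNT 2 alone (-0.23, adjusted p = 0.13).

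Most ribosome biogenesis genes rose. Of 55 tested, 32 rose and 4 fell (median 0.29), led by DDX10 (0.94 ± 0.14), RRP12 (0.93 ± 0.11), POLR1B (0.92 ± 0.09) and MYBBP1A (0.76 ± 0.09), factors of ribosomal RNA synthesis and processing. Of 79 cytosolic ribosomal protein genes, 1 rose and 15 fell (median -0.15), a share of falls of 19% against 31.0% of all genes, with RPSA (-0.63 ± 0.12) lowest. Ribosomal proteins have many processed pseudogenes, so single values are uncertain. Their summed CPM overlapped between groups, at 35443 to 59818 in DMSO_siNT and 34450.5 to 40409 in 4OHT_siNT. The highest value was that of DMSO_siNT siNT 4 of set 3VM. For mitochondrial ribosomal proteins, 20 rose and 10 fell of 73 (median 0.06). Genes of the secretory pathway and ER chaperones showed no shift as a list: 19 rose and 12 fell of 70, median 0.01, summed CPM 19540.1 ± 817 (SD, n = 5) and 19454 ± 280.5 (SD, n = 6). Within it the stress sensor ERN1 (1.75 ± 0.17) and the chaperone HYOU1 (0.64 ± 0.10) rose and CREB3L1 (-0.80 ± 0.08), a factor that drives collagen secretion, fell.

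**Figure D2:**
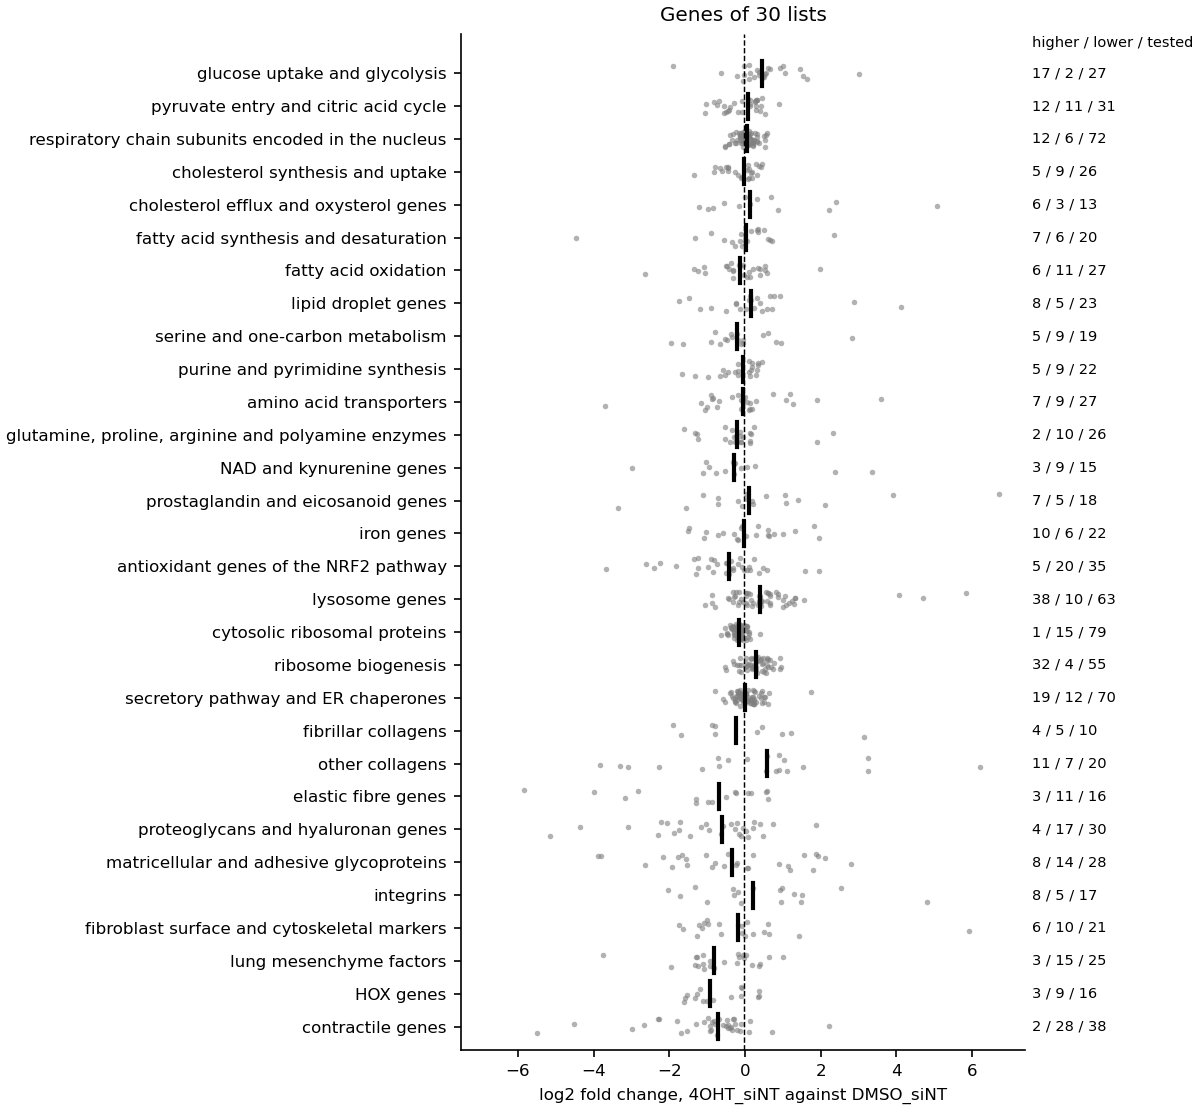
Log2 fold changes of 4OHT_siNT against DMSO_siNT (x axis) for the members tested of 30 lists in metabolism, protein production, matrix and identity (rows). Each grey point is a gene, black bars are list medians and the numbers at the right give genes called higher, called lower and tested; the dashed line is the median of all 13057 genes. Lysosome, glycolysis and ribosome biogenesis medians lie to the right of it, and those of contractile, lung mesenchyme, elastic fibre and proteoglycan genes to the left.

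Collagen changed in kind. Type I collagen, the main fibril of fibroblast matrix, fell in both chains: COL1A2 had 8434, 7190.5, 6798, 8090.5 and 6949 CPM in DMSO_siNT and a lowest, median and highest of 1916, 2349.7 and 2754 CPM in 4OHT_siNT (-1.68 ± 0.12, adjusted p = 1.5e-08), and COL1A1 went from 12297 ± 1653 CPM (SD, n = 5) to 7129 ± 1179 CPM (SD, n = 6; -0.79 ± 0.13). No DMSO_siNT library fell within the 4OHT_siNT range for either chain. With the left-out DMSO_siNT library added back, COL1A1 was at -0.59 and no longer called (adjusted p = 0.10). COL3A1 (-0.80 ± 0.17), COL5A2 (-0.87 ± 0.09) and COL11A1 (-1.90 ± 0.14) fell too, COL3A1 not with siNT 4 alone (-0.33, adjusted p = 0.095). The 10 fibrillar collagens tested had 4 rises and 5 falls, and their summed CPM went from 21866 ± 2374 to 11279 ± 1619.7 (SD, n = 5 and 6). COL5A3 (3.15 ± 0.16), COL27A1 (1.22 ± 0.13) and COL24A1 (0.99 ± 0.18) rose.

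Type VI collagen, which forms beaded microfibrils around cells, rose in its 3 main chains. COL6A1 had 3072, 2337, 2677, 2343 and 1779.9 CPM in DMSO_siNT and 4057, 4848 and 6395 CPM (lowest, median, highest) in 4OHT_siNT (1.04 ± 0.14), and COL6A2 (1.11 ± 0.12) and COL6A3 (0.81 ± 0.17) followed. The groups did not overlap for any of the 3, and their summed CPM went from 8099 ± 1586 to 16144 ± 2507 (SD, n = 5 and 6). COL7A1, the anchoring fibril of epidermal junctions, rose (3.26 ± 0.18), as did the hypertrophic cartilage collagen COL10A1, from 0 to 0.373 CPM to 13.3 to 23.1 CPM. COL15A1 (-3.82 ± 0.45), COL8A2 (-3.29 ± 0.42) and COL14A1 (-3.10 ± 0.53) fell. Of 20 non-fibrillar collagens tested, 11 rose and 7 fell (median 0.58, summed CPM 11456 ± 1906 and 20828 ± 2841, SD, n = 5 and 6). The sum over all collagens overlapped between groups, at 27382 to 37139.9 CPM in DMSO_siNT and 26923 to 38933 CPM in 4OHT_siNT.

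**Figure D3:**
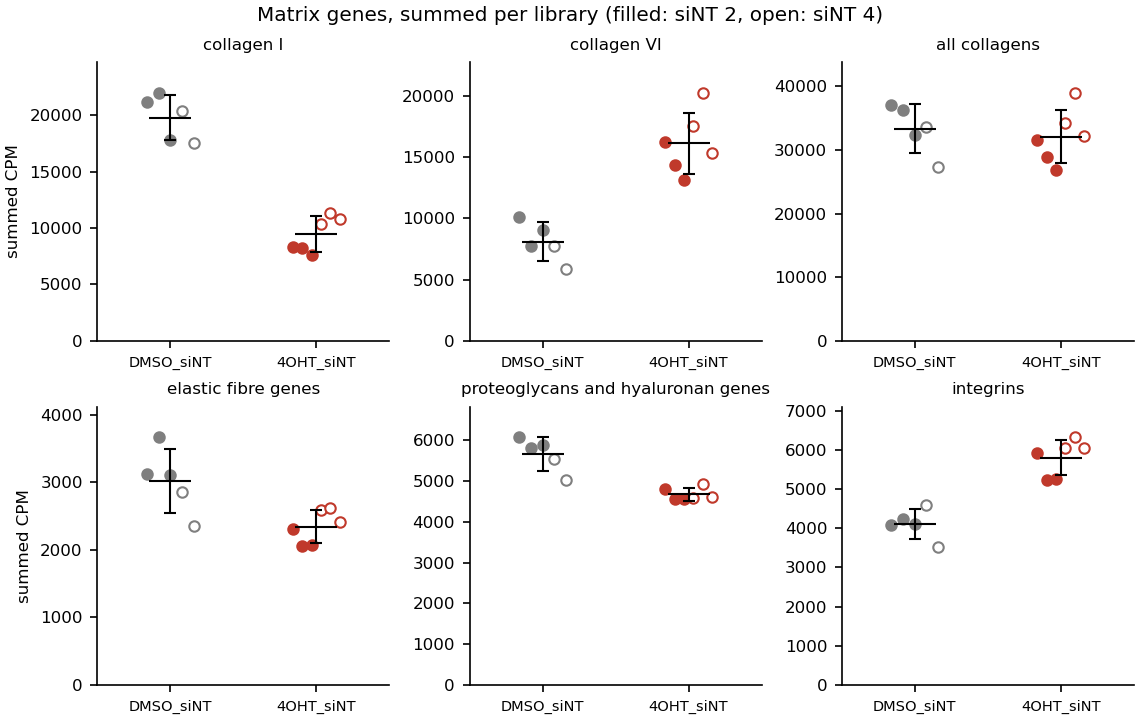
Summed CPM (y axis, from 0) of collagen I, collagen VI, all collagens, elastic fibre genes, proteoglycans and hyaluronan genes, and integrins in each library. Points are libraries, grey for DMSO_siNT (n = 5) and red for 4OHT_siNT (n = 6), filled for siNT 2 and open for siNT 4, and bars are means ± SD. Collagen I was lower and collagen VI higher in every 4OHT_siNT library, while the sums over all collagens overlapped.

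Genes that finish collagen split evenly: 12 rose and 12 fell of 28 tested. The cross-linking oxidases LOX (-1.74 ± 0.11) and LOXL1 (-1.76 ± 0.11) fell, and the hydroxylases P4HA2 (0.85 ± 0.10) and PLOD2 (0.83 ± 0.07) rose. Elastic fibre genes mostly fell: 3 rose and 11 fell of 16 (median -0.68). Elastin (ELN) varied widely among growing cells, at 2.0, 33.3, 5.54, 10.4 and 7.24 CPM, and was 0.0697 to 0.519 CPM in 4OHT_siNT (-5.84 ± 0.75). Every 4OHT_siNT value was below the lowest DMSO_siNT value. EFEMP1 (-3.98 ± 0.16), FBLN2 (-3.17 ± 0.14) and FBLN1 (-2.83 ± 0.26), fibulins that help assemble the fibre, fell by more than 4-fold, and fibrillin FBN1 by less (-0.49 ± 0.16), with no call in the VM sets (-0.40, adjusted p = 0.09). EMILIN1 (0.62 ± 0.11) rose. Within the VM sets the median of the list was -0.44, with 8 falls.

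Proteoglycans and hyaluronan genes mostly fell: 4 rose and 17 fell of 30 (median -0.60). Besides DCN and ACAN these were the small leucine-rich proteoglycans LUM (-1.74 ± 0.13) and PODN (-3.10 ± 0.35), and CEMIP (-4.37 ± 0.41), which breaks hyaluronan down. CEMIP differed among growing libraries, from 88.5 CPM in siNT 2 of set 1V to 12.4 CPM in siNT 4 of set 3VM, and was 1.10 to 3.19 CPM in 4OHT_siNT. The hyaluronan receptor CD44 (0.40 ± 0.07) rose slightly. BGN was not called (-0.10 ± 0.18, adjusted p = 0.66).

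Adhesive glycoproteins of wound matrix went both ways: 8 rose and 14 fell of 28 (median -0.34). Tenascin C (TNC, 1.87 ± 0.21), periostin (POSTN, 213 ± 81 CPM to 734 ± 28.6 CPM, SD, n = 5 and 6; 1.79 ± 0.18), TGFBI (1.19 ± 0.10), SPON2 (1.94 ± 0.10) and osteopontin (SPP1, 2.13 ± 0.20) rose. Thrombospondin 1 (THBS1, -1.66 ± 0.17), CCN1 (-1.52 ± 0.08), CCN2 (-1.04 ± 0.08), SPARC (-0.55 ± 0.14), MATN2 (-3.88 ± 0.23) and the netrin NTN4 (-2.18 ± 0.22) fell, SPARC not with siNT 2 alone (-0.38, adjusted p = 0.12). CCN1 and CCN2 are common readouts of mechanical signalling. Fibronectin (FN1), among the most counted genes of both groups, was not called over all libraries (0.09 ± 0.24, adjusted p = 0.77), but its log2 fold change was -0.60 with siNT 2 alone (adjusted p = 0.0074) and 0.71 with siNT 4 alone (adjusted p = 0.0076). With siNT 4 there were only 2 DMSO_siNT libraries, and that of set 3VM stood low for FN1. Of the 3 DMSO_siNT libraries with siNT 2, 2 were V, so siRNA and set letters cannot be told apart in these 2 effects. The effects differed over all libraries (interaction 1.30 ± 0.28, adjusted p = 0.034) and did not pass the test within the VM sets (1.24 ± 0.33, adjusted p = 0.081), and FN1 stood at 5062 to 9508 CPM in DMSO_siNT and 4892 to 11889 CPM in 4OHT_siNT.

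In the basement membrane, 5 rose and 4 fell of 11 laminin and nidogen genes (median 0.27): LAMB1 (0.69 ± 0.10), LAMB3 (1.45 ± 0.15) and NID1 (1.0 ± 0.14) rose while LAMA2 (-1.77 ± 0.19) and NID2 (-1.18 ± 0.09) fell. Matrix receptors shifted with them: 8 rose and 5 fell of 17 integrins (median 0.21), and their summed CPM went from 4110.1 ± 384 to 5802 ± 453 (SD, n = 5 and 6). ITGB3, which pairs with ITGAV to bind vitronectin and osteopontin, rose (2.55 ± 0.20), while ITGAV fell (-0.32 ± 0.09), not with siNT 4 alone (-0.30, adjusted p = 0.11). Rises were also found for ITGB5 (1.52 ± 0.14), the collagen receptor ITGA1 (1.48 ± 0.21) and the fibronectin receptor ITGA5 (0.92 ± 0.08). Laminin receptors ITGA6 (-1.31 ± 0.13) and ITGA7 (-2.04 ± 0.17) fell. Of 15 ADAMTS proteases, 6 rose and 5 fell, with ADAMTS4 (2.71 ± 0.26), an aggrecanase, highest and ADAMTS15 (-3.43 ± 0.26) lowest.

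Fibroblast markers were partly kept. Of 21 tested, 6 rose and 10 fell (median -0.18). VIM was at 6878 ± 949 CPM (SD, n = 5) and 6863 ± 782 CPM (SD, n = 6; -0.0031 ± 0.11, adjusted p = 0.98). THY1 (-1.0 ± 0.11), PDGFRB (-0.69 ± 0.12), the BMP antagonist GREM1 (-1.27 ± 0.18), FSTL1 (-1.21 ± 0.09) and S100A4 (-1.64 ± 0.17) fell, PDGFRB not with siNT 4 alone (-0.29, adjusted p = 0.11). PDPN, podoplanin, appeared: its CPM were 0.285, 0, 0.0827, 0.149 and 0.0754 in DMSO_siNT and a lowest, median and highest of 5.41, 7.70 and 10.6 in 4OHT_siNT (5.91 ± 0.36). DPP4 (1.44 ± 0.09) and NT5E (0.60 ± 0.09) rose. PDGFRA was not called (0.05 ± 0.21, adjusted p = 0.86) over a wide DMSO_siNT range of 93.6 to 309 CPM, with both V libraries at 309 and 196 CPM. Within the VM sets it was 0.52 (adjusted p = 0.0049).

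Factors that pattern lung mesenchyme mostly fell: 3 rose and 15 fell of 25 (median -0.81). PRRX2 stood at 20.9, 35.5, 24.9, 25.2 and 29.8 CPM in DMSO_siNT and 1.59, 1.89 and 2.67 CPM (lowest, median, highest) in 4OHT_siNT (-3.76 ± 0.16), far apart. PRRX1 (-1.28 ± 0.15), OSR1 (-1.96 ± 0.10), TBX5 (-1.11 ± 0.09) and TCF21 (-1.08 ± 0.11) also fell. FOXF1, a target of hedgehog signalling in lung mesenchyme, rose (0.63 ± 0.10), as did TBX3 (1.0 ± 0.09), and TBX2 (-0.16 ± 0.09, adjusted p = 0.14) and TWIST1 (0.02 ± 0.10, 0.86) were not called. HOX genes, which record body position, differed by cluster. No HOXD gene passed the filter and 18 of 39 HOX genes had at most 3 counts in every library. The HOXA cluster was read less than HOXB. Its summed CPM was 40.8 ± 6.01 in DMSO_siNT and 17.0 ± 2.04 in 4OHT_siNT (SD, n = 5 and 6). For HOXB the sums were 353 ± 41.9 and 368 ± 29.1. Of 6 HOXA genes tested 5 fell and none rose, led by HOXA2 (-1.60 ± 0.33), HOXA7 (-1.57 ± 0.20), HOXA3 (-1.52 ± 0.18) and HOXA5 (-1.33 ± 0.15). Of 7 HOXB genes 3 rose and 2 fell, with small rises of HOXB5 (0.37 ± 0.11), HOXB6 (0.36 ± 0.12) and HOXB2 (0.34 ± 0.11); HOXB2 and HOXB6 were not called within the VM sets, and none of the 3 with siNT 4 alone.

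Most contractile genes fell. Of 38 genes tested, 2 rose and 28 fell (median -0.71), and the summed CPM went from 21323 to 28377 in DMSO_siNT to 15194 to 17441 in 4OHT_siNT with no overlap. TAGLN, which binds actin filaments, had 1079.7, 1998, 1295, 1192 and 1626 CPM in DMSO_siNT and a lowest, median and highest of 127, 168 and 246 CPM in 4OHT_siNT (-2.99 ± 0.20, adjusted p = 5.7e-09). Smooth muscle actin ACTA2 had 254, 558, 307, 259 and 271 CPM against 106, 111 and 123 CPM (-1.54 ± 0.17). For both genes every 4OHT_siNT library lay below every DMSO_siNT library. Falls also took CNN1 (-2.67 ± 0.11), LMOD1, LDB3 (at least 7.26-fold lower), the smooth muscle actin ACTG2 (-2.28 ± 0.14), the myosins MYH10 (-1.69 ± 0.16) and MYL9 (-0.45 ± 0.09), the kinase MYLK (-1.29 ± 0.13), CALD1 (-0.82 ± 0.14) and TPM1 (-0.92 ± 0.14). The cytoplasmic actin ACTB (-0.63 ± 0.09), outside the list, also fell. PDLIM3 (2.22 ± 0.20) and SMTN (0.72 ± 0.13) rose. Serum response factor SRF (0.13 ± 0.08, adjusted p = 0.19) and its coactivator MRTFA (0.11 ± 0.09, 0.31), which act on these genes, were not called.

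Because SRF binds the CArG box, a run of A and T between CC and GG, the promoters of the list were searched for it. Promoters are RefSeq sequences of GRCh38.p14 from 250 bases before to 50 after the gene start, found for 10290 of the genes tested, and both strands were searched. A CArG box lay in 8 of 35 (22.9%) promoters of contractile genes and in 116 of 10290 (1.13%) of all promoters. Of the 8 contractile genes with a box, CNN2 (-0.97 ± 0.08), MYLK, TPM4 (-0.49 ± 0.08), ACTG2, FLNA (-0.44 ± 0.16), LDB3 and FHL2 (-0.48 ± 0.09) fell and SRF itself was not called. The fall of FLNA was near the threshold: without 4OHT_siNT siNT 2 of set 2VM or 3VM, or DMSO_siNT siNT 2 of set 2V or 2VM, its adjusted p was 0.061, 0.059, 0.063 and 0.068, and with siNT 4 alone its log2 fold change was 0.046. Of all 38 contractile genes tested, 28 fell (73.7%), and falls among genes with a box are to be read against that share. The boxes of SRF are left out, and the 8 boxes of the 7 genes that fell are shown. They are written 5′ to 3′ on the gene's strand, with 10 bases on each side and the box in capitals:
ACTG2: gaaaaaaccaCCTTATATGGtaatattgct
ACTG2 (nearer the start): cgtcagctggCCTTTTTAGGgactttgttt
MYLK: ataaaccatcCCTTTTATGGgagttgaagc
CNN2: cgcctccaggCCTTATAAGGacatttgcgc
LDB3: gggttacagtCCATTTATGGgcgcagccga
FHL2: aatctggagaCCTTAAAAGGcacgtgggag
TPM4: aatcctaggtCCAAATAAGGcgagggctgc
FLNA: ggcaattttaCCAATTAAGGctttctcgcc

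These windows lie upstream of the gene starts: ACTG2 at chr2:73892888-73892917, plus strand, and chr2:73892925-73892954, MYLK at chr3:123620623-123620652, minus strand, CNN2 at chr19:1026509-1026538, plus strand, LDB3 at chr10:86668444-86668473, plus strand, FHL2 at chr2:105438595-105438624, minus strand, TPM4 at chr19:16067355-16067384, plus strand, and FLNA at chrX:154374709-154374738, minus strand. Counted from the gene start, their boxes begin between position -173 (TPM4) and position -57 (LDB3). A match is a description of letters, and binding was not measured here. Genes called lower over 4-fold held a CArG box in 7 of 406 (1.72%) promoters and genes called higher over 4-fold in 7 of 268 (2.61%).

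**Figure D4:**
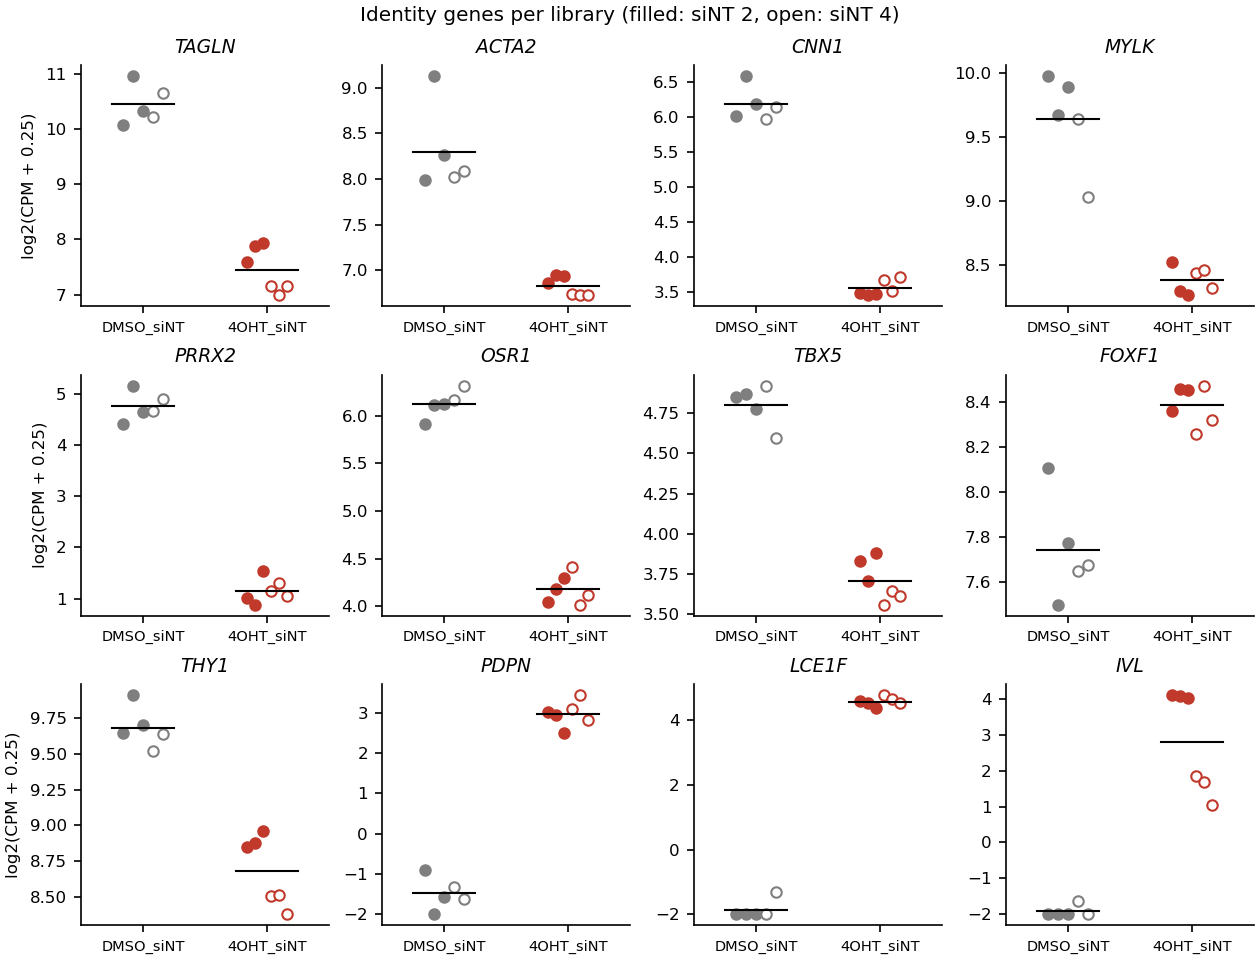
CPM on a log2 axis (y axis, log2 of CPM + 0.25, scaled separately for each gene) of 12 genes in each library: contractile genes (TAGLN, ACTA2, CNN1, MYLK), lung mesenchyme factors (PRRX2, OSR1, TBX5, FOXF1), fibroblast markers (THY1, PDPN) and cornified envelope genes (LCE1F, IVL). Points are libraries, grey for DMSO_siNT (n = 5) and red for 4OHT_siNT (n = 6), filled for siNT 2 and open for siNT 4, and bars are means. PDPN, LCE1F and IVL sit near the floor in DMSO_siNT, and IVL splits by siRNA in 4OHT_siNT.

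A few genes of the cornified envelope, the protein shell of skin cells, were read in senescent cells. Of 68 such genes and squamous keratins, 52 had at most 3 counts in every library, among them KRT5, KRT14, KRT1, LORICRIN and FLG, which define the squamous lineage. Of the 8 tested, 7 rose: LCE1F, IVL, LCE2C, PI3 (at least 15-fold higher), LCE2A, KRT17 (2.43 ± 0.27) and KRT15 (1.10 ± 0.20). The remaining gene, the keratin KRT10, was the most counted of the list and was not called (log2 fold change -0.14). LCE1F, IVL, LCE2C and PI3 had at most 3 counts in every DMSO_siNT library and passed the filter through 4OHT_siNT alone, so they had to differ and the count of rises is set in part by the filter. Involucrin (IVL) was silent in DMSO_siNT. In 4OHT_siNT it was at 17.1, 17.0 and 16.2 CPM in the 3 libraries with siNT 2 and at 3.39, 3.00 and 1.81 CPM in the 3 with siNT 4. Over all 6 libraries IVL was at least 43.2-fold higher, and the bound was at least 74.4-fold from the siNT 2 libraries and at least 12.1-fold from the siNT 4 libraries alone. An AP-1 motif (TGANTCA, either strand) lay in the IVL promoter and in that of TMEM156, both among the genes named for their rise. It is shown in capitals with 10 bases on each side, 5′ to 3′ on the gene's strand:
IVL: atgcctgtggTGAGTCAggaaggggtt
TMEM156: taatgggaagTGACTCAaaagtgaagt

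The IVL window is chr1:152908413-152908439, plus strand, and the TMEM156 window is chr4:39032474-39032500, minus strand, upstream of both gene starts. This motif was held by 28 of 268 (10.4%) promoters of genes called higher over 4-fold, by 23 of 406 (5.67%) of genes called lower over 4-fold and by 473 of 10290 (4.60%) of all genes tested. Outside the set-aside lists the shares were 21 of 240 (8.75%) and 21 of 307 (6.84%). For the cell cycle motif CHR (TTTGAA), which fallen proliferation genes are known for, the shares were 31 of 268 (11.6%), 84 of 406 (20.7%) and 990 of 10290 (9.62%), and outside the set-aside lists the share among lower genes was 38 of 307 (12.4%). A sterol regulatory element (TCACNCCAC) lay in 1 of 20 (5.0%) promoters of cholesterol synthesis and uptake genes, that of SREBF2, and in 108 of 10290 (1.05%) of all promoters.

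Markers of other lineages were read selectively. Of 7 epithelial markers tested, 5 fell and none rose: KRT19 went from 32.7 to 52.3 CPM to 0.830 to 1.73 CPM, and CLDN4 (-1.47 ± 0.22), KRT7 (-0.94 ± 0.26) and MUC1 (-0.86 ± 0.22) fell less. KRT7 was not called with siNT 2 alone (-0.80, adjusted p = 0.064), nor MUC1 with siNT 4 alone (-0.62, adjusted p = 0.07). Of 7 endothelial markers tested, 5 rose. ROBO4 had 3.35, 3.37, 2.98, 3.44 and 2.19 CPM in DMSO_siNT and a lowest, median and highest of 56.8, 68.3 and 71.1 CPM in 4OHT_siNT (4.43 ± 0.12). FLT1, the VEGF receptor (2.13 ± 0.23), ESAM (2.38 ± 0.30), TIE1 (1.59 ± 0.45) and VWF (1.26 ± 0.21) rose, whereas the defining markers PECAM1, CDH5 and KDR did not pass the filter. TIE1 was not called with siNT 2 alone (adjusted p = 0.079). The summed CPM of the endothelial list was 34 to 47.2 in DMSO_siNT and 132 to 178 in 4OHT_siNT. Of 8 smooth muscle and pericyte markers tested, 1 rose and 5 fell. KCNJ8 (-3.88 ± 0.26) and ABCC9 (-3.35 ± 0.27), the channel and receptor subunits of a potassium channel, were among the falls, and SMTN, a smooth muscle cytoskeletal protein and the most counted of the list, rose (0.72 ± 0.13). Among neuronal genes, VGF (3.45 ± 0.27), NEFL (3.38 ± 0.34) and NEFM (2.14 ± 0.31) rose and SNAP25 (-3.23 ± 0.37) fell, with 5 called each way of 15 tested. Of 9 cartilage, bone and fat markers tested, 2 rose and 5 fell. PPARG, the adipocyte nuclear receptor, fell with FABP4, ACAN and MATN3 (-2.64 ± 0.30), while SPP1 and the bone factor RUNX2 (0.29 ± 0.12, adjusted p = 0.046) rose, RUNX2 with overlapping groups and not within the VM sets (0.35, adjusted p = 0.058). In bulk RNA, fewer cells of a kind and less RNA per cell cannot be told apart.

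Transcription factors changed in both directions. Of 359 listed factors tested outside the set-aside lists, 124 rose and 121 fell, that is 34.5% and 33.7% against 28.2% and 31.0% of all genes. Their median was 0.03. The largest rise was that of EHF, an ETS factor of epithelia, with 0.855, 0.717, 0.827, 1.72 and 0.829 CPM in DMSO_siNT and a lowest, median and highest of 63.3, 75.4 and 87.2 CPM in 4OHT_siNT (6.26 ± 0.17, adjusted p = 6.5e-13). Next came FOXQ1 (4.24 ± 0.30) and POU2F2 (3.77 ± 0.17), the latter a factor known from B cells, at 15.2 to 24.6 CPM against 183 to 342 CPM. Immediate early factors EGR3 (3.63 ± 0.22) and EGR2 (3.22 ± 0.27), the Notch targets HEY1 (3.56 ± 0.21) and HES7 (2.76 ± 0.22), the repressor PRDM1 (3.37 ± 0.13), the Wnt effector LEF1 (3.21 ± 0.15), NFATC2 (2.87 ± 0.31), BHLHE40 (2.76 ± 0.20), ARID3B (2.69 ± 0.28), NR4A3 (2.54 ± 0.19), ZFHX2 (2.31 ± 0.21) and TFAP2C (2.21 ± 0.21) completed the 15 largest. FOXQ1 was read at 33.4 to 39.4 CPM with siNT 2 and 16.6 to 18.7 CPM with siNT 4 under 4OHT (difference of effect between siRNAs, adjusted p = 0.067).

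Among the falls, TOX went from 14.4, 5.88, 10.9, 6.27 and 5.35 CPM in DMSO_siNT to at most 3 counts in every 4OHT_siNT library. KLF2, a factor of quiescent endothelium and T cells, had 46.5, 60.4, 43, 51.5 and 70.6 CPM against 1.73, 3.22 and 3.84 CPM (lowest, median, highest; -4.18 ± 0.18), and KLF4 fell with it (-2.36 ± 0.17). All 4 ID factors, inhibitors of helix-loop-helix factors, fell: ID1 (-1.53 ± 0.28), ID2 (-3.75 ± 0.23), ID3 (-1.93 ± 0.27) and ID4 (-2.26 ± 0.33). ID1 values overlapped between groups, at 59.3 to 179 CPM and 25.2 to 60.9 CPM, and those of the other ID genes did not. SMAD9 (-3.34 ± 0.29) and ATOH8 (-4.08 ± 0.30) also fell, whereas SMAD1 (1.70 ± 0.21), which like SMAD9 acts below BMP receptors, rose. Other large falls were MYBL1 (-3.66 ± 0.13), ZFPM2 (-3.21 ± 0.22), PPARG (-2.80 ± 0.13), HHEX (-2.79 ± 0.15), ARNT2 (-2.60 ± 0.21), FOXC2 (-2.56 ± 0.15) and NPAS1 (-2.49 ± 0.28), besides PRRX2.

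By family, the list of STAT, IRF and REL factors, which relay cytokine and interferon signals, was one-sided: 12 rose and 1 fell of 22 (median 0.35). RELB (1.58 ± 0.16), NFKB2 (1.46 ± 0.10), IRF1 (1.04 ± 0.10), NFKB1 (0.93 ± 0.11) and STAT3 (0.33 ± 0.08) rose and NFAT5 (-0.38 ± 0.13) fell, which lost its call without DMSO_siNT siNT 2 of set 2V (adjusted p = 0.075) or 2VM (0.053). Of 48 basic helix-loop-helix factors, 25 rose and 14 fell (median 0.29), HIF1A among the rises (0.54 ± 0.09) and EPAS1, which encodes HIF-2alpha, among the falls (-0.71 ± 0.19), not within the VM sets (-0.35, adjusted p = 0.08). Basic leucine zipper factors were balanced: 13 rose and 12 fell of 44. CEBPB (1.23 ± 0.10), JUN (0.93 ± 0.13) and the small MAF genes MAFF (2.01 ± 0.13) and MAFK (1.27 ± 0.12) rose, while FOSL2 (-1.24 ± 0.13) and JDP2 (-1.23 ± 0.13) fell. Among nuclear receptors falls outnumbered rises (8 rose and 12 fell of 26, median -0.27), with NR3C2 (-1.55 ± 0.18) among the falls beside PPARG. The same held for homeobox factors outside HOX (9 rose and 19 fell of 43, median -0.23).

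**Figure D5:**
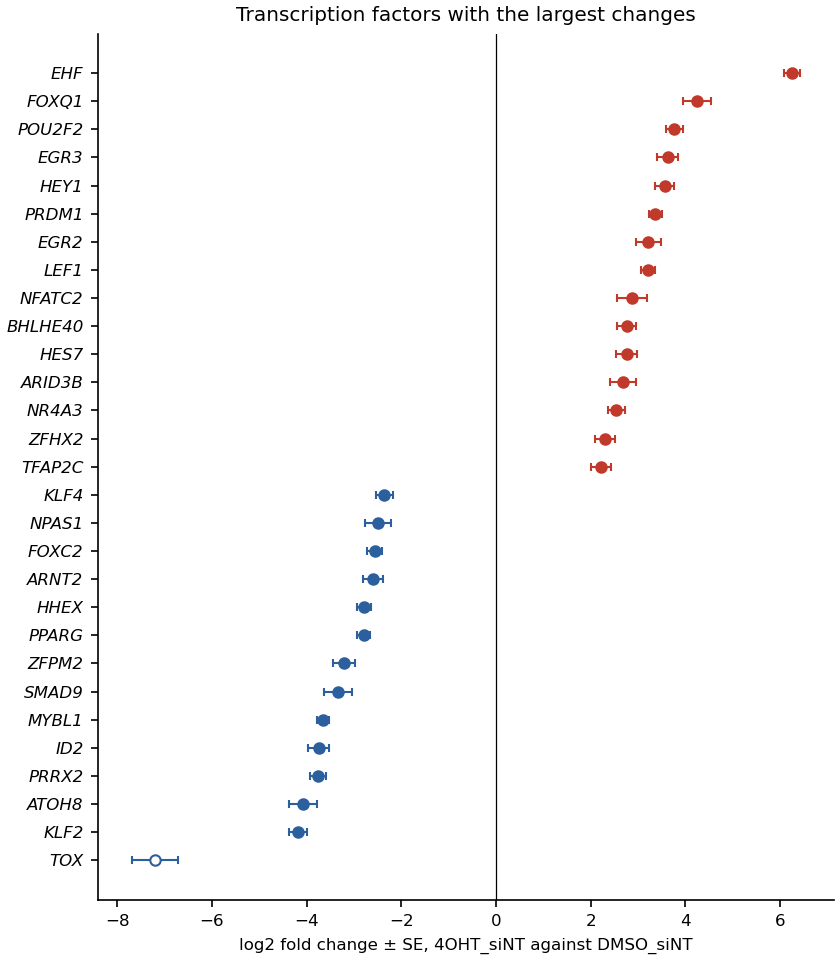
Log2 fold change (x axis) with its standard error (bars) for the 15 largest rises and 14 of the largest falls among 359 transcription factors tested outside the set-aside lists. Filled points are factors whose CPM did not overlap between the 6 4OHT_siNT and 5 DMSO_siNT libraries; for TOX every 4OHT_siNT library had at most 3 counts, and its fitted value is drawn open. EHF and TOX stand farthest from 0.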

How the data were processed

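IMR90 ER:RAS cells were profiled by RNA sequencing (72-base reads per the labels). The deposited counts are whole-number reads per gene symbol, 2 lanes per library. The submitters' processing notes name STAR 2.7.8a and DESeq2 1.36.0. The counting tool, its strand setting and the build used for alignment are not given in the sources used here, so reads of overlapping or antisense genes cannot be told apart. Lanes were summed. Of 29 labelled samples, 17 matched a library in the table and 11 entered the comparison. The 12 labelled samples without a library in the table could not be analysed here, and 1 library in the table matched no label. Matched libraries outside the comparison entered only alternative fits. No pair of libraries of a group agreed within sampling noise (chi-square per degree of freedom at least 2.33, against 1.19 to 1.27 between lanes).

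CPM were computed from the counts. Counts were tested in edgeR 4.0.16 (R 4.3.3; quasi-likelihood test, TMM scaling, filterByExpr with a minimum count of 10), with Benjamini-Hochberg adjustment over 13057 genes. DESeq2 1.42.0 was an alternative. On simulated counts for this comparison, with 12933 genes tested, edgeR recovered 65.3% of genes changed 1.5-fold, 89.8% of those changed 2-fold and 100% of those changed 4-fold, and 6.42% of its calls were false. Only 49 genes changed by each of these folds were tested there, while 59.1% of genes were called in the data. These rates may therefore not carry over. Tables were made in Python 3.11.15 with pandas 2.3.3. The comparison and all 56 gene lists were chosen with earlier results of these data known, so list counts are descriptions. Genes were named by rule: 15 each way over all genes (mean log2 CPM over 1, groups not overlapping), 15 each way over transcription factors, 4 each way and 2 most counted per list, defining members, and others a sentence needed. Bounds use 3 counts per library and cover counting error only. Gene positions are GENCODE on GRCh38, and promoters are RefSeq on GRCh38.p14. Some genes that these rules name are not reported here.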

Additional observations from a re-analysis of the deposited data

Results flagged for a closer look

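Within each group, the gap between the highest or lowest library and its nearest neighbour was divided by the group's whole range, for log2 CPM of every gene named and log2 summed CPM of every list. A library was marked where this ratio passed Dixon's 95% critical value for 5 or 6 libraries. Of 750 groups of values, 54 (7.20%) were marked, where chance marks about 1 in 20. DMSO_siNT siNT 4 of set 3VM was the library marked in 21 of them and DMSO_siNT siNT 2 of set 2VM in 13. Among list sums, 4OHT_siNT siNT 2 of set 1VM stood low for lysosome genes (ratio 0.644) and cytosolic ribosomal proteins (ratio 0.699). Among list sums, 4OHT_siNT siNT 4 of set 2VM stood high for collagen processing and cross-linking (ratio 0.712). Among list sums, DMSO_siNT siNT 2 of set 2VM stood high for other-lineage markers: smooth muscle and pericyte (ratio 0.790). Among list sums, DMSO_siNT siNT 2 of set 2VM stood low for other-lineage markers: cartilage, bone and fat (ratio 0.821). Among list sums, DMSO_siNT siNT 4 of set 3VM stood high for glucose uptake and glycolysis (ratio 0.742), pyruvate entry and citric acid cycle (ratio 0.780), respiratory chain subunits encoded in the nucleus (ratio 0.790), purine and pyrimidine synthesis (ratio 0.840), glutamine, proline, arginine and polyamine enzymes (ratio 0.803), mitochondrial ribosomal proteins (ratio 0.867) and other-lineage markers: neuronal and neuroendocrine (ratio 0.730). Among list sums, DMSO_siNT siNT 4 of set 3VM stood low for T-box, GATA, RUNX, SMAD, TEAD, NFI, MEF2, AP-2 and grainyhead (ratio 0.730).

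Among single genes the same ratio is given in parentheses. 4OHT_siNT siNT 2 of set 1VM stood high for COL5A2 (0.705) and DPP4 (0.637). 4OHT_siNT siNT 2 of set 1VM stood low for HOXA7 (0.733). 4OHT_siNT siNT 4 of set 1VM stood low for PLOD2 (0.779), PRDM1 (0.696) and TMEM130 (0.637). 4OHT_siNT siNT 4 of set 2VM stood high for BGN (0.658) and CXCL3 (0.659). 4OHT_siNT siNT 4 of set 3VM stood high for SLC40A1 (0.689). DMSO_siNT siNT 2 of set 1V stood high for KCNJ8 (0.911). DMSO_siNT siNT 2 of set 2V stood low for PFKFB4 (0.898) and TGFBI (0.713). DMSO_siNT siNT 2 of set 2VM stood high for ACTA2 (0.759), BGN (0.714), CNN2 (0.815), DCSTAMP (0.732), FBLN2 (0.824), ITGB5 (0.813), NFATC2 (0.744) and PYCR1 (0.721). DMSO_siNT siNT 2 of set 2VM stood low for NR1H3 (0.724) and PDK1 (0.841). DMSO_siNT siNT 4 of set 2VM stood high for EHF (0.807) and SLC38A2 (0.721). DMSO_siNT siNT 4 of set 3VM stood high for CEBPB (0.820), EBP (0.811), NDUFB9 (0.827), PDK2 (0.725) and SPP1 (0.785). DMSO_siNT siNT 4 of set 3VM stood low for FBN1 (0.765), FLNA (0.765), FN1 (0.795), NID1 (0.754), TBX3 (0.745) and TNC (0.900). For CXCR4, IVL, LCE1F, LCE2C, MMP7 and PI3 the ratio was 1 because a single DMSO_siNT library held any counts, at most 3 of them for those given as a bound.

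The effect of 4OHT differed between the siRNAs (a treatment by siRNA interaction in edgeR, adjusted p under 0.05) for 570 of 13057 genes tested and for 20 of the 322 genes named. The 20 are listed as a description and are no finding about the named genes. Values are the log2 effect with siNT 4 minus that with siNT 2, with its SE. Adjusted p ran from 0.013 to 0.049 over these 20 genes. The value was above 0 for PTGES (1.78 ± 0.44), ABCC3 (1.55 ± 0.34), FN1 (1.30 ± 0.28), ASS1 (1.02 ± 0.25), ITGA7 (1.02 ± 0.19), ENO2 (1.02 ± 0.13), FLNA (0.87 ± 0.23), SLC2A1 (0.79 ± 0.13), SREBF2 (0.78 ± 0.16), GLUL (0.71 ± 0.18) and TWIST1 (0.58 ± 0.14). It was below 0 for SLC6A15 (-0.54 ± 0.12), KYNU (-0.63 ± 0.16), ITGA6 (-0.71 ± 0.18), RPLP0P2 (-0.88 ± 0.21), DGAT2 (-1.48 ± 0.37), ID1 (-1.59 ± 0.39), ID3 (-1.59 ± 0.37), TMEM156 (-1.61 ± 0.37) and MMP12 (-2.90 ± 0.74). Both V libraries of DMSO_siNT carried siNT 2, so the same interaction was fitted within the 9 libraries of the VM sets, a fit added after the data were seen, in which siNT 2 has 1 DMSO_siNT library. It called 118 genes. All 20 named genes had the same sign there, and ENO2 (1.06 ± 0.17, adjusted p = 0.02), ITGA7 (1.22 ± 0.20, adjusted p = 0.021) and SLC2A1 (0.93 ± 0.14, adjusted p = 0.02) were called.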

How the results depend on the processing

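No gene called over 11 libraries was called the other way under any of the settings run. Counts of higher and lower genes stayed within 1.5 times of 3677 and 4045 under every other setting, except that asking for a change over 2-fold left 2553 calls, 994 higher and 1559 lower. Leaving out each library in turn gave 7288 to 8054 calls, 3434 to 3978 higher and 3783 to 4076 lower, with the most calls without DMSO_siNT siNT 4 of set 3VM. Upper-quartile scaling and library totals moved the median of all genes by -0.08 and -0.09 and gave 40.1% and 39.3% of calls higher, against 47.6%. The set name as a replicate block gave 6097 calls and the 3 pairs of VM libraries with the same siRNA and set as a replicate block gave 5455. Deviations of those pairs correlated at -0.27, 0.02 and 0.11, so the names were not taken to pair the samples. Of 23 lists with a median beyond 0.25, all kept its sign except blood and immune markers with every gene counted at least once (-0.67 to 0.63) and cartilage, bone and fat markers with at least 10 counts in every library (-0.72 to 0.06). Medians moved by more than the spread between libraries for 51 of 53 lists in at least 1 setting and for 29 with siNT 4 alone. With the left-out DMSO_siNT library added back, 19 moved, among them NRF2 genes (-0.41 to -0.65), cytosolic ribosomal proteins (-0.15 to -0.55), respiratory chain subunits (0.04 to -0.34), NAD and kynurenine genes (-0.29 to -0.57) and fibrillar collagens (-0.24 to -0.03). The siRNA interaction was called for 570 genes over all libraries and for 118 within the VM sets. Among named genes, FLNA (0.046) and BGN (0.40) with siNT 4 alone and FN1 (-0.60) with siNT 2 alone changed sign, and the cause was not tested. Leaving out 1 library ended the calls of FLNA, NFAT5, SREBF2 and RUNX2. SREBF2 (0.36, adjusted p = 0.023) was lost without 4OHT_siNT or DMSO_siNT siNT 4 of set 2VM (adjusted p = 0.052 and 0.054). RUNX2 was lost without any 1 library other than 4OHT_siNT siNT 4 of set 1VM or 3VM and DMSO_siNT siNT 2 of set 2V or 2VM (adjusted p up to 0.1), and under both scalings named above, either filter and the fit of all 3 groups. TBX2 was called without 4OHT_siNT siNT 4 of set 2VM (-0.22, adjusted p = 0.019), with siNT 2 alone and under both scalings. SREBF2 was lost under both scalings. With the VM sets alone EPAS1, FBN1, FLNA, HOXB2, HOXB6, NFAT5 and RUNX2 were no longer called. With siNT 4 alone COL3A1, FBN1, HOXB2, HOXB5, HOXB6, ITGAV, MUC1, NFAT5, PDGFRB and SLC2A1 were no longer called, and FN1, PDGFRA and TWIST1 were. With siNT 2 alone KRT7, MITF, PDK3, PTGES, RUNX2, SPARC, SREBF2 and TIE1 were no longer called. The set name as a replicate block ended the calls of EPAS1, FBN1, FLNA, HOXB2, HOXB5, HOXB6, ITGAV, MITF, MUC1 and NFAT5, and the 3 pairs as a replicate block those of COL3A1, FBN1, FLNA, HOXB2, HOXB5, HOXB6, ITGAV, MUC1, NFAT5, PDK3, RUNX2 and TFE3. PDGFRA was called under both blocks and within the VM sets. With the left-out DMSO_siNT library added back 20 named genes were no longer called: COL1A1, COL3A1, ESR1, FASN, FBN1, FLNA, FOXF1, HOXB5, HOXB6, ITGAV, LSS, MYL9, NDUFB9, NFAT5, RUNX2, SLC2A1, SPARC, SREBF2, TFE3 and TPM4. Genes with few counts in most libraries did not pass the filter, so their changes were not detectable at this depth.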
